A study of Arabidopsis thaliana with 36 samples.

Results

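The genes described here are 99 Arabidopsis genes, each known in the array's probe table by a locus number alone, whose transcripts were higher in both xylem and cork of a MYB50 knockout than in the same tissues of wild-type Col-0. They were chosen among 22810 probe sets of the ATH1 array, of which 13513 had 1 gene and 11933 of those a locus number for a name. Members were chosen by group means of log2(intensity + 16), which had to differ by at least 1 between MYB50 knockout and Col-0 in xylem and again in cork, which 112 probe sets met. The Col-0 xylem mean minus the Col-0 cork mean then had to lie between -1.3 and 1.3, which left 101 and dropped 7 with higher xylem and 4 with higher cork. AT1G04680 and AT1G67750 were left out by name. The 99 probe sets stand for 99 distinct genes, and the gene table gave 97 of them no name beyond the locus number. The exceptions are AT2G46140, annotated as late embryogenesis abundant 27, and AT3G23090, annotated as WDL3. No role is given below to a gene without an annotation in the tables used.

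Xylem and cork were sampled from plants carrying a MYB50 knockout, from plants carrying a MYB61 knockout and from Col-0. Hypocotyls were sampled from abi1 and aba1, both in the Ler ecotype, with Ler itself, and from max4 and axr1, set against Col-0 hypocotyls. Each of these 12 groups had 3 arrays, each made from RNA of 200 to 400 pooled plants grown in compost under constant light, and the labels do not say how the pools were grown apart, so p-values measure the spread between these pools. The labels give neither the alleles of the knockouts, nor the age of the plants, nor the ecotype of max4 and axr1. Intensities below are the deposited scaled intensities, as array values or as mean ± SD over 3 arrays.

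MYB61 and MYB50 encode related MYB transcription factors, a family of DNA-binding proteins that is large in plants, and MYB61 is known for work in xylem, lignin deposition and stomata. Secondary growth thickens the hypocotyl: the vascular cambium makes xylem, which carries water, on its inner side, and the cork layer forms the outer skin. ABI1 encodes a phosphatase that restrains abscisic acid signalling, and ABA1 an epoxidase needed to make the hormone. MAX4 encodes a carotenoid-cleaving dioxygenase of strigolactone synthesis, and AXR1 a subunit of the enzyme that activates the ubiquitin-like protein RUB, without which auxin responses are weak.

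Array medians lay between 35.1 and 44.9 and the scanner background between 64.2 and 132. The medians were 40.0 to 42.3 in MYB50 knockout xylem against 35.9 to 36.9 in Col-0 xylem. In cork they were 43.7 to 44.9 in the MYB50 knockout against 40.4 to 41.1 in Col-0. The part of this in the choice of members was not tested beyond quantile normalization, under which 87 of the 99 still met the rule. The correlation between arrays within groups was 0.975 to 0.994, and no pair of arrays held identical values. No probe set named MYB50, MYB61 or the gene mutated in a hypocotyl group, so the mutants could not be checked by the level of those genes. The first cork array of the MYB50 knockout is labelled a repeat, and the first cork array of the MYB61 knockout had the lowest quality weight of the 36 arrays (0.218). In bulk tissue fewer cells of a type and less RNA per cell cannot be told apart. Of xylem and tracheary element markers 0 of 10 listed were tested. The one suberin marker tested was FACT, an acyltransferase gene, at 227 ± 13.5 in MYB50 knockout cork and 114 ± 6.06 in Col-0 cork, against 19.1 ± 2.11 in MYB50 knockout xylem and 18.2 ± 3.93 in Col-0 xylem.

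By the rule the MYB50 knockout was higher for every member, and the sizes are given as a description with no test. The difference in xylem ran from 1.01 to 3.37 with a median of 1.59 on the log2 scale, and in cork from 1.00 to 4.62 with a median of 1.46. It was larger in xylem for 64 members and larger in cork for 35. In both tissues it was at least 2 for 11 members and under 1.5 for 25. The arrays of MYB50 knockout and Col-0 did not overlap for 98 members in xylem and for 99 in cork, the exception in xylem being AT5G62360, as the choice of members favours. Over all tested probe sets the MYB50 knockout arrays lay above the Col-0 arrays without overlap for 23.7% in xylem and 26.7% in cork, and limma called 20.4% higher in xylem and 21.3% in cork. Median member intensity was 142 in MYB50 knockout xylem and 133 in MYB50 knockout cork, against 35.4 in Col-0 xylem and 32.7 in Col-0 cork. Values under 16 lie near the background of these arrays. The means of 30 members were under 16 in Col-0 xylem (30.3%, against 41.1% of all locus-number probe sets) and those of 22 in Col-0 cork (22.2%, against 38.9%); the rule itself keeps every MYB50 knockout mean above that level. The 25S ribosomal RNA control differed between the same groups, at 387 ± 283 in MYB50 knockout xylem against 1245 ± 606 in Col-0 xylem, and at 766 ± 629 in MYB50 knockout cork against 2820 ± 189 in Col-0 cork. Its part in the members' difference was not tested.

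**Figure D1:**
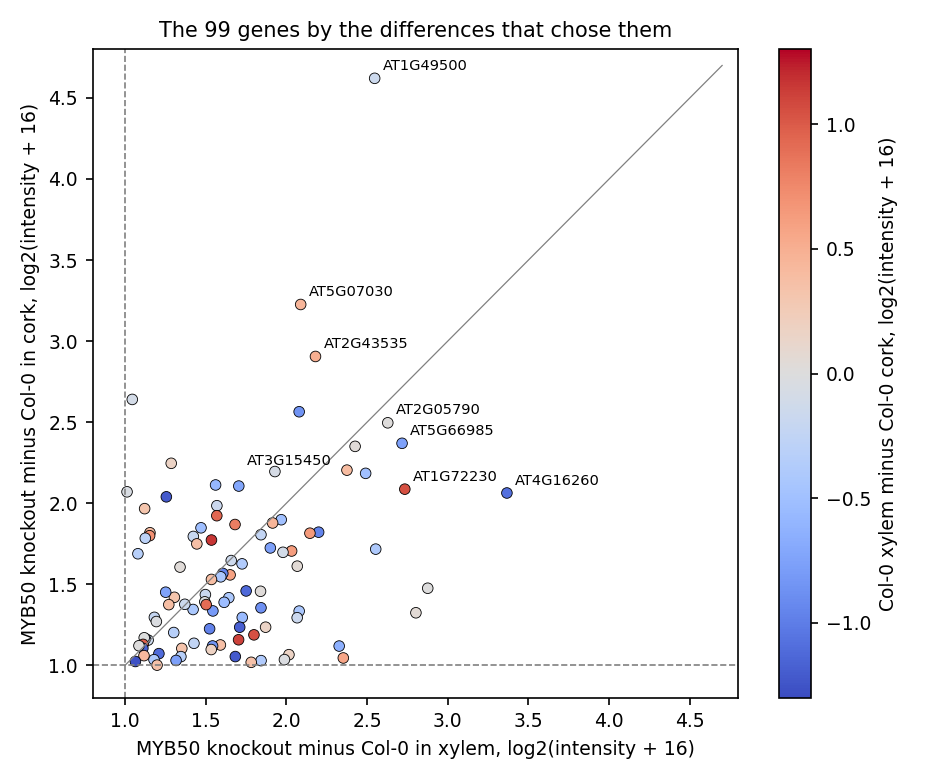
MYB50 knockout minus Col-0 in cork (vertical axis) against the same difference in xylem (horizontal axis), both in log2(intensity + 16), for the 99 genes. Dashed lines mark the limit of 1, the solid line equal differences, and colour Col-0 xylem minus Col-0 cork. AT1G49500 stands alone at the top with 4.62 in cork, and AT4G16260 is farthest right with 3.37 in xylem.

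AT1G49500 had the largest difference. Its arrays read 94.4, 88.8 and 104.8 in MYB50 knockout xylem, against 1.8, 1.4 and 6.6 in Col-0 xylem. In cork they read 551.1, 494.5 and 488.3 in the MYB50 knockout, against 3.9, 6.6 and 5.8 in Col-0. It was thus near the background in both Col-0 tissues and brighter in cork than in xylem of the knockout. AT5G07030 also stood higher in cork: 238.6 ± 9.56 in MYB50 knockout cork, against 11 ± 1.8 in Col-0 cork, with 143.8 ± 22.1 in MYB50 knockout xylem and 21.6 ± 6.05 in Col-0 xylem. AT4G16260 differed most in xylem, with 489.8, 978.7 and 519.1 in MYB50 knockout xylem, against 35.7, 62.3 and 44.6 in Col-0 xylem. Replicate 2 was the highest of its MYB50 knockout arrays in cork as well (454.5, 793.1 and 432.2), against 91.1, 123.8 and 140.1 in Col-0 cork.

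AT2G05790 differed almost alike in both tissues. It read 416.0, 323.1 and 452.7 in MYB50 knockout xylem, against 56.0, 40.1 and 55.9 in Col-0 xylem, and 353.6 ± 14.0 in MYB50 knockout cork, against 49.8 ± 8.06 in Col-0 cork. AT5G66985 read 141.6 ± 39.2 in MYB50 knockout xylem, against 7.6 ± 3.68 in Col-0 xylem, and 189.8 ± 18 in MYB50 knockout cork, against 24.4 ± 9.35 in Col-0 cork. The Col-0 spread was wide for some of the strongest members. AT1G72230 read 441.6, 445.7 and 479.5 in MYB50 knockout xylem, against 30.6, 32.5 and 141.3 in Col-0 xylem, where replicate 3 stood apart. AT3G15450 read 1369.9, 476.7 and 1101.4 in MYB50 knockout xylem, against 112.2, 96.4 and 325.2 in Col-0 xylem, again with replicate 3 of Col-0 high.

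Of the annotated members, AT2G46140 differed by 1.32 in xylem and by 1.03 in cork, close to the limit there, and AT3G23090 by 1.57 in xylem and 1.92 in cork. AT2G46140 (LEA27), whose protein family is known for accumulating in seeds and drying tissue, read 171.5, 163.1 and 170.1 in MYB50 knockout xylem, against 67, 59.3 and 48.7 in Col-0 xylem, and 241.4 ± 11.5 in MYB50 knockout cork, against 110.0 ± 6.96 in Col-0 cork. AT3G23090 (WDL3), of a family of microtubule-binding proteins, read 178.4, 193.1 and 202.6 in MYB50 knockout xylem, against 40.9, 42.1 and 86.9 in Col-0 xylem. In cork it read 122.6 ± 11.8 in the MYB50 knockout and 20.5 ± 2.71 in Col-0. The brightest members were AT4G24780 (1332 in MYB50 knockout xylem and 2036 in MYB50 knockout cork, against 345 in Col-0 xylem and 598 in Col-0 cork), AT2G31390 (1664 and 1802 in the MYB50 knockout, xylem then cork, against 487 and 720 in Col-0) and AT5G62350 (1687 and 1627 in the MYB50 knockout, against 880 and 470 in Col-0).

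The limits of the rule cut through a continuous range. At the xylem limit of 1 the nearest members were AT2G28790 (1.01) and AT2G19970 (1.05), and the nearest probe sets outside were AT3G02640 and AT2G15960 (0.97 each). At the cork limit AT5G54400 (1.00) and AT2G28870 (1.02) were inside, and AT3G51450 (0.998) and AT1G09390 (0.994) outside. For Col-0 xylem minus cork, AT5G59480 (-1.26) and AT5G58300 (-1.21) were the nearest inside the lower limit, with AT4G36430 (-1.56) and AT1G31550 (-2.08) outside. At the upper limit AT1G63040 (1.17) and AT4G17260 (1.11) were inside, with AT1G69080 (1.78) and AT3G61820 (1.80) outside.

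Genes from lists of wall, vascular and stress genes were set beside the members in the same MYB50 knockout comparisons. Most of the listed genes were not tested. Of 3 alpha-expansins tested of 18 listed, wall-loosening proteins, 2 rose in xylem and 3 in cork. EXPA4 was at 705 ± 60.7 in MYB50 knockout xylem against 194 ± 8.69 in Col-0 xylem, and EXPA15 rose by 1.08 (log2, SE 0.15) in cork. Of 4 xylan synthesis genes of 12 listed, 3 rose in xylem, led by IRX15 (360 ± 86.2 in MYB50 knockout xylem against 39.4 ± 47.8 in Col-0 xylem) and IRX15-L, and 1, IRX15-L, rose in cork. COB, a protein that orients primary-wall cellulose, rose by 1.23 in xylem and 1.1 in cork. HCT, an acyltransferase of lignin monomer synthesis and the 1 gene tested of 17 listed, rose by 0.42 in xylem and differed by 0.18 in cork (adjusted p = 0.263). None of the listed cell division, fasciclin-like arabinogalactan or secondary-wall cellulose genes was tested. Of 3 phloem markers of 9 listed, none was called in xylem. In cork 2 of them rose, the signalling peptide genes CLE41 (965 ± 55.5 in MYB50 knockout cork against 354 ± 12.5 in Col-0 cork) and CLE44, and 1, the sucrose exporter SWEET11, fell. Of 2 cambium markers of 8 listed, MOL1 and PHV both rose in cork, and PHV fell in xylem by 0.51. RCA, rubisco activase, a leaf gene, fell by 0.70 in xylem and by 1.07 in cork. The part of these cell types in the members' difference was not tested.

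Most members were brighter in hypocotyl than in the other Col-0 tissues. Their median intensity was 58.1 in Col-0 hypocotyl, and 76 of 99 (76.8%) had a higher mean there than in Col-0 xylem and in Col-0 cork, against 35.5% of all locus-number probe sets. The rule favoured genes with low values on the Col-0 xylem and cork arrays, so this count is a description. The highest of all 12 group means was in MYB50 knockout cork for 44 members and in MYB50 knockout xylem for 36. Over all locus-number probe sets these shares were 12.63% and 10.95%. The rule required both of these groups to exceed Col-0, so these counts too are a description. The highest mean was in max4 for 10 members (against 7.1% of all locus-number probe sets) and in Col-0 hypocotyl for 4 (against 12.4%). It was in axr1 for 3 members and in aba1 and Ler for 1 each. In 19 members a hypocotyl group thus stood above both MYB50 knockout tissues, among them AT1G25550, highest in aba1, and AT5G55180, highest in Ler.

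The hypocotyl comparisons and the xylem to cork comparison within the MYB61 knockout contrasted groups whose arrays did not enter the rule. The spread was estimated over all 36 arrays, those of the rule included, so the p-values are not wholly separate from it. These comparisons were fitted across all 15924 probe sets with a mean intensity over all arrays of at least 14.7. Of the 99 members 98 passed that filter and AT1G04660 did not. Over the 30 arrays outside the MYB50 knockout 4 members, AT1G04660 among them, would have fallen under it. The others of these passed only through the arrays that chose them, and they stay in all counts of calls. A member is said to have risen or fallen where limma's adjusted p was under 0.05. In every comparison the members' share called is to be read against the share of all tested probe sets. For the repeated fits that share is given only with array weights, so their other counts are descriptions.

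**Figure D2:**
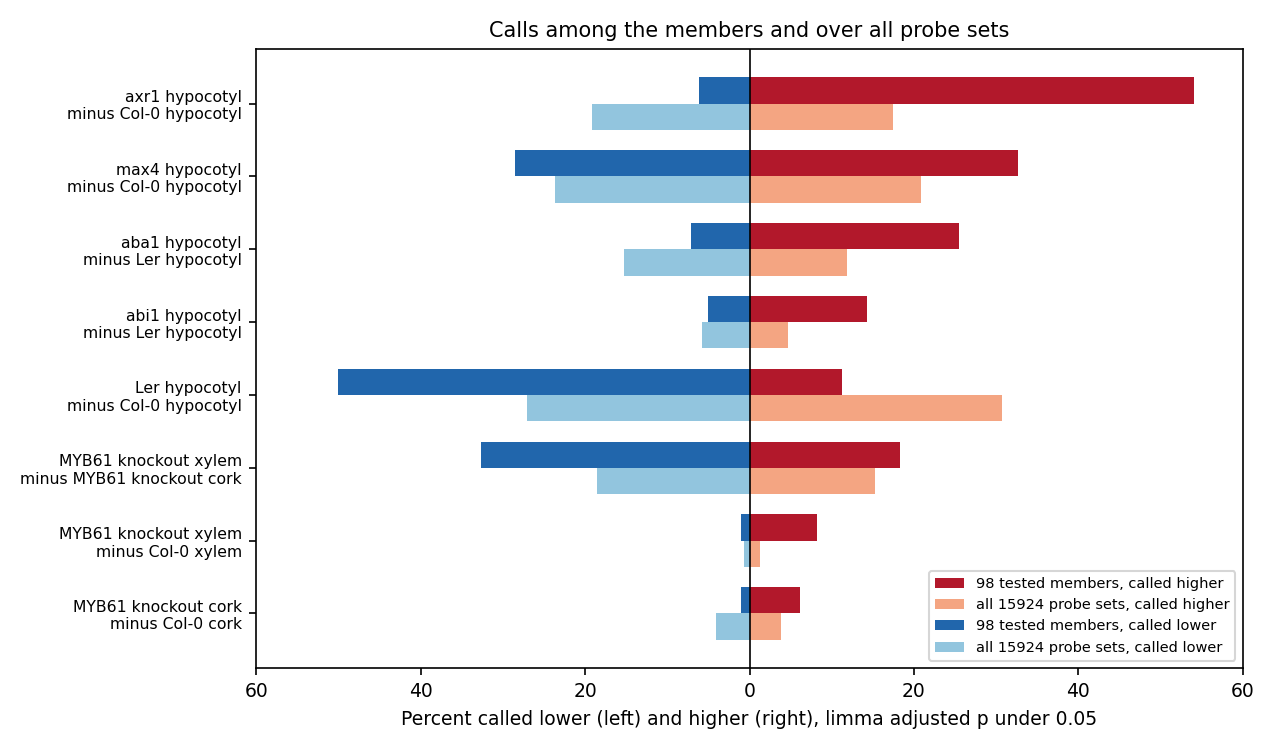
Percent of the 98 tested members (dark bars) and of all 15924 probe sets (light bars) called higher (right of 0) or lower (left of 0) in 8 comparisons, by limma adjusted p under 0.05. In axr1 54.1% of the members rose against 17.5% of all probe sets, and in Ler against Col-0 hypocotyls 50.0% were lower against 27.1%.

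In axr1 most called members were on the high side: 53 of 98 rose and 6 fell, against 17.5% and 19.2% of all probe sets. The median difference of members was 0.54 on the log2 scale, against -0.03 for all probe sets. At least 2-fold, 21 members rose and 3 fell, and the share of all probe sets past that size was not counted. Among locus-number probe sets alone 15.1% were called higher. For all 59 called members the axr1 and Col-0 arrays did not overlap, as for 94.8% of all called probe sets. AT5G07030 read 124.6, 132.5 and 106.9 in axr1, against 33.0, 34.6 and 36.9 in Col-0 hypocotyl (log2 1.43, SE 0.13, adjusted p = 2.36e-10). AT1G25550 read 238.5, 250.9 and 258.9 in axr1, against 83.6, 63.6 and 55.2 in Col-0 hypocotyl. AT2G36650 read 166.8, 145.0 and 150.1 in axr1, against 35.1, 40.8 and 20.2 in Col-0 hypocotyl, a rise of 1.85. AT5G62720 rose by 1.74 and AT3G23090 (WDL3) by 0.55. AT4G16260 and AT2G05790, among the strongest in the MYB50 knockout, differed by -0.02 (adjusted p = 0.968) and 0.09 (adjusted p = 0.725).

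The 6 members that fell in axr1 included AT2G43535 (log2 -1.83, SE 0.22, adjusted p = 8.79e-08), AT2G43530 (-1.14), AT2G28790 (-1.1) and AT1G17860 (-0.93). AT2G28790 read 63.4, 61.7 and 46.7 in axr1, against 137.3, 146.8 and 135.5 in Col-0 hypocotyl. AT1G17860 read 85.7, 76.0 and 101.3 in axr1, against 183.1, 175.9 and 182.7 in Col-0 hypocotyl.

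In max4 the members split: 32 rose and 28 fell, against 20.9% and 23.7% of all probe sets, with a median of 0.08 for members and -0.02 for all probe sets. At least 2-fold changes were 15 rises and 14 falls, with the share of all probe sets again not counted. The deepest falls were those of AT5G19120, AT1G49500, AT2G43535 and AT2G43530. AT1G49500 read 1.7, 2.1 and 1.5 in max4, near the background, against 103.3, 129.0 and 87.9 in Col-0 hypocotyl (log2 -2.77, SE 0.15, adjusted p = 4.08e-15). AT5G19120 read 46.6, 54.5 and 59.8 in max4, against 671.8, 503.0 and 582.2 in Col-0 hypocotyl, a difference of -3.11. AT1G72230 read 26, 27.6 and 22.6 in max4, against 88.0, 87.0 and 94.4 in Col-0 hypocotyl. On the high side AT2G36650 rose by 1.93 and AT5G66985 by 1.67, with AT5G66985 at 216.9, 208.2 and 223.9 in max4 against 65.0, 67.5 and 41.8 in Col-0 hypocotyl.

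Because max4 and axr1 were set against the same Col-0 arrays, they were also compared with each other. In max4 relative to axr1, 17 members were higher and 48 lower, against 16.1% of all probe sets each way, and the median of members was -0.40 against 0.02. AT1G49500 differed most, with 278.9 ± 21.5 in axr1 (log2 -4.05, SE 0.15, adjusted p = 1.68e-18). AT1G68670 read 69.9, 73.2 and 61.1 in max4, against 488.1, 503.2 and 453.1 in axr1, with 226.7, 185.0 and 221.7 in Col-0 hypocotyl between them. AT5G19120 (-2.53), AT1G72230 (-2.52), AT3G15450 (-2.41) and AT5G62720 (-2.28) were lower in max4 too. AT5G66985 (2.07) and AT5G12110 (1.79) were higher in max4, the second at 77.4, 91.3 and 91.6 in max4 against 11, 17.1 and 13.4 in axr1.

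**Figure D3:**
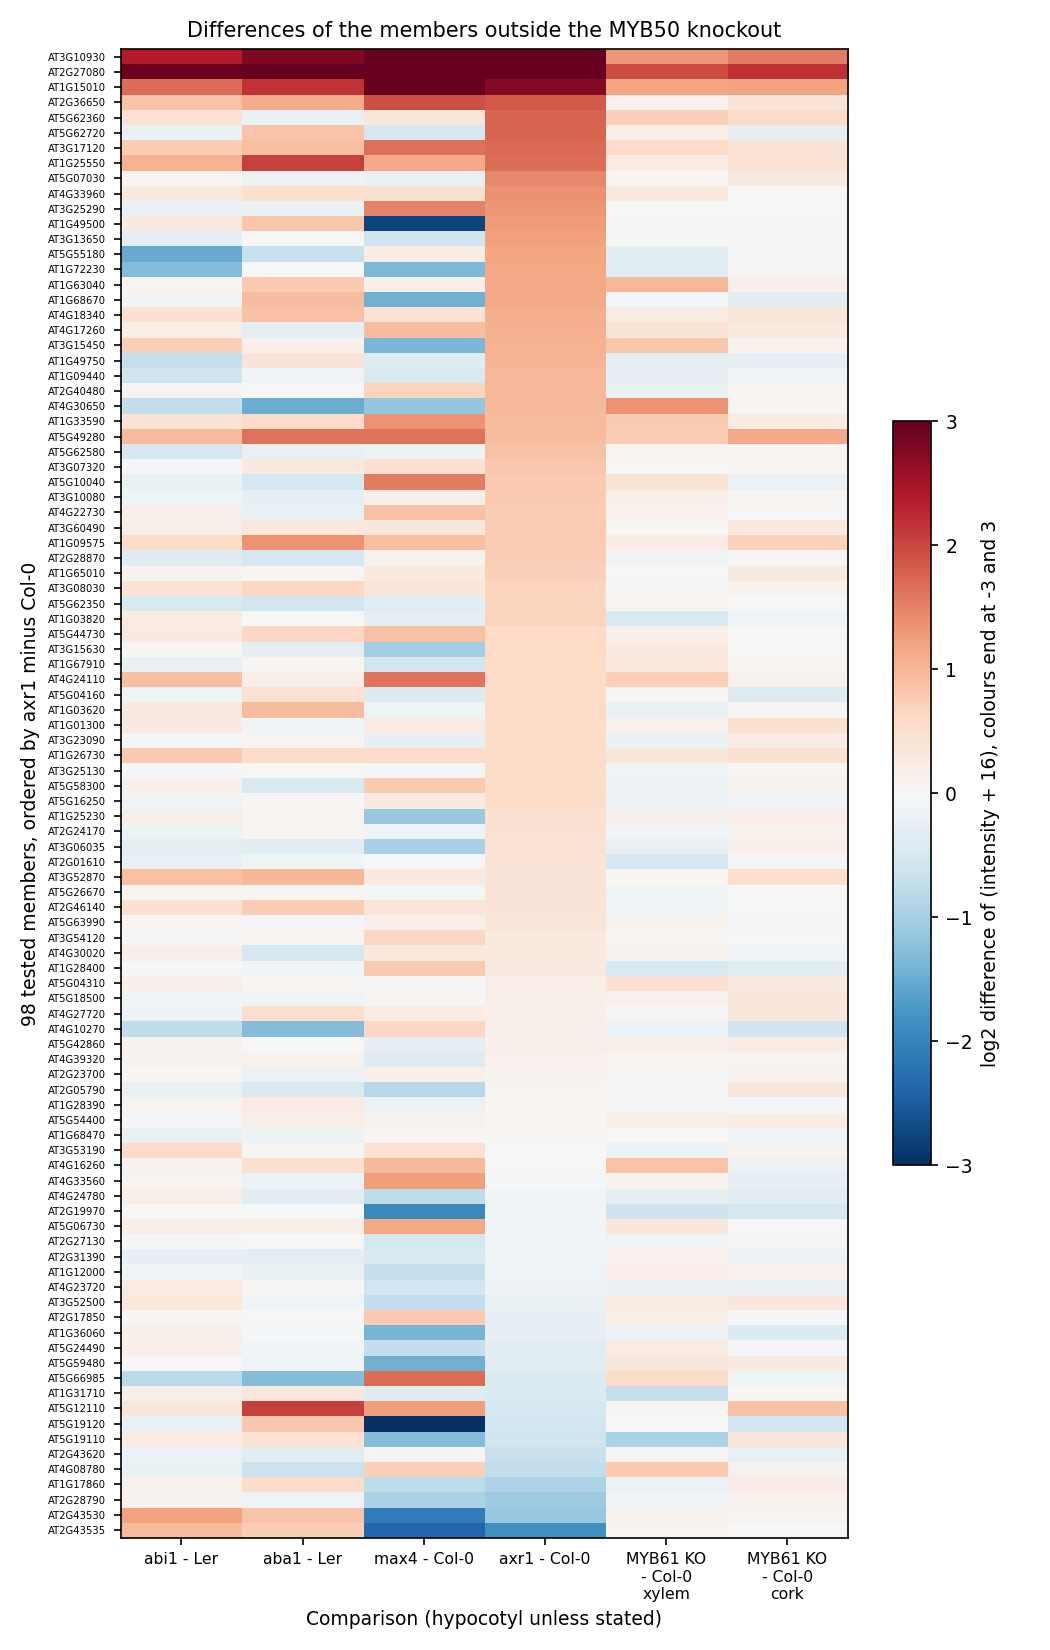
Log2 differences of the 98 tested members (rows, ordered by axr1 minus Col-0) in 6 comparisons (columns), red for higher and blue for lower in the mutant; colours end at -3 and 3. The axr1 column is mostly red, with 53 rises and 6 falls, the max4 column mixed, with 32 and 28, and the MYB61 columns are mostly pale. Their stronger rows stand at the top (AT2G27080, AT3G10930 and AT1G15010) and farther down, such as AT4G30650 in xylem (1.35).

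In aba1, which is deficient in abscisic acid, 25 members rose and 7 fell, against 11.8% and 15.3% of all probe sets. In abi1, which responds poorly to it, 14 rose and 5 fell, against 4.67% and 5.76%. With array weights 30 members rose and 19 fell in aba1, against 18.9% and 24.4% of all probe sets, and 20 rose and 13 fell in abi1, against 8.70% and 11.5%. The medians of members were 0.04 in aba1 and 0.09 in abi1, against -0.02 for all probe sets in both. The 25S ribosomal RNA control was at 951 ± 519 in aba1 and 225 ± 170 in abi1, against 66.4 ± 18.6 in Ler. The ratio of the 3' to the 5' actin control was 1.41 ± 0.05 in aba1 and 1.66 ± 0.18 in abi1, against 1.26 ± 0.02 in Ler. The part of these controls in the members' differences was not tested. AT1G25550 read 325.6, 344.8 and 349.8 in aba1 and 142.3, 168.5 and 168.9 in abi1, against 94.0, 55.0 and 64.5 in Ler (adjusted p = 1.54e-11 for aba1). AT2G43530 rose by 1.21 (SE 0.17) in abi1 and by 0.85 in aba1. AT5G55180 fell in both, by 1.51 in abi1 and by 0.67 in aba1, with 62.6, 65.9 and 74.0 in abi1 and 123.8, 131.2 and 142.6 in aba1, against 190.7, 211.9 and 265.7 in Ler. AT4G10270 fell as well, to 239.7 ± 32.7 in abi1 and 158.1 ± 10.7 in aba1, against 416.4 ± 43.6 in Ler.

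Other members were called in abi1 or in aba1 alone. AT1G72230 read 2.2, 9.4 and 8.3 in abi1, against 32.7, 40.8 and 43.8 in Ler (log2 -1.29, SE 0.28, adjusted p = 0.0019), and in aba1 it differed by -0.01 (adjusted p = 0.977). In abi1 relative to aba1 it was lower by -1.28 (adjusted p = 0.00139). AT1G49750 fell in abi1 by 0.70. AT4G30650 fell in aba1 to 24.5, 26.5 and 30.2, against 99.7, 111.5 and 104.7 in Ler, and differed in abi1 by -0.72 (adjusted p = 0.076). AT5G66985 read 35.6, 32.2 and 45.0 in aba1, against 75.2, 123.2 and 158.6 in Ler, a fall of 1.29 that rested in part on Ler replicate 3: without it the difference was -1.08 and not called. In abi1 AT5G66985 differed by -0.82 (adjusted p = 0.169), and abi1 and aba1 did not differ from each other past the threshold (0.47, adjusted p = 0.446). AT5G12110 differed most between the mutants: it read 86.8, 70.7 and 56.6 in aba1, against 4.7, 6.1 and 3.9 in Ler (log2 2.05, SE 0.32, adjusted p = 8.55e-06), while abi1 stayed near the background at 10.6 ± 4.69, lower than aba1 by a log2 difference of -1.72. Over all members 6 were higher and 18 lower in abi1 than in aba1, against 8.07% and 7.35% of all probe sets.

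Members called in an abscisic acid mutant can be set against those called in axr1 or max4, since these families share no arrays. Their spread was estimated together, however. Of the 25 members higher in aba1, 20 were also higher in axr1, which is 80.0% of the first list and 37.7% of the 53 of the second, and 3 were lower there. Over all probe sets 37.4% of those higher in aba1 were higher in axr1, while 17.5% of all probe sets and 54.1% of the members were. Of the same 25, 15 were higher in max4 (60%, and 46.9% of the 32) and 5 were lower, against 41.0% higher over all probe sets higher in aba1. Of the 14 higher in abi1, 11 were higher in max4 (78.6%, and 34.4% of the 32) and 10 in axr1 (71.4%, and 18.9% of the 53). Over all probe sets higher in abi1 these shares were 56.3% for max4 and 50.6% for axr1. Of the 5 that fell in abi1, 4 rose in axr1 (80.0%, and 7.55% of the 53), against 36.6% over all probe sets. The difference between the shares of members and of all probe sets was not tested. Over the hypocotyl mutants 84 of 98 members (85.7%) were called at least once, against 64.9% of all probe sets, and 14 in none.

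Called higher in each of abi1, aba1, max4 and axr1 were AT1G09575, AT1G15010, AT1G25550, AT2G27080, AT2G36650, AT2G46140 (LEA27), AT3G08030, AT3G10930 and AT5G49280, though abi1 and aba1 share the Ler arrays and max4 and axr1 the Col-0 arrays. The share of all probe sets called higher in each of these mutants was not counted, so the list is a description. LEA27 rose by 0.46 in abi1 and 0.38 in axr1. AT3G08030 read 286.6, 260.6 and 317.5 in max4 and 358.6, 351.3 and 369.6 in axr1, against 217.4, 225.2 and 214.5 in Col-0 hypocotyl, levels below the 768.5 ± 61.4 of MYB50 knockout cork.

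The widest differences were in AT2G27080, AT3G10930 and AT1G15010. AT2G27080 read 385.8, 394.3 and 370.1 in abi1 and 773.0, 885.1 and 763.4 in aba1, against 48.4, 25.9 and 36.2 in Ler (log2 2.94, SE 0.25, adjusted p = 5.89e-10 in abi1, and 3.98 in aba1). It read 1200.4, 1229.8 and 1207.0 in max4 and 680.2, 644.7 and 568.0 in axr1, against 58.9, 46.1 and 65.1 in Col-0 hypocotyl (4.09 and 3.16). Both wild types were thus low and each mutant array far above them. AT3G10930 differed by 3.88 in max4 and 3.58 in axr1 (SE 0.21 each), with 571.7, 533.7 and 522.6 in max4 and 370.6, 415.4 and 542.5 in axr1, against 32.2, 17.0 and 18.6 in Col-0 hypocotyl. AT1G15010 read 397.2, 387.0 and 416.1 in max4 and 263.8, 260.4 and 274.9 in axr1, against 24.4, 26.9 and 26.6 in Col-0 hypocotyl. In max4 these genes stood above MYB50 knockout xylem, where AT2G27080 read 759.5, 408.0 and 751.2 against 61, 83.3 and 67.4 in Col-0 xylem, and AT3G10930 read 381.5, 281.1 and 375.2 against 50.4, 66.4 and 50.8 in Col-0 xylem.

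**Figure D4:**
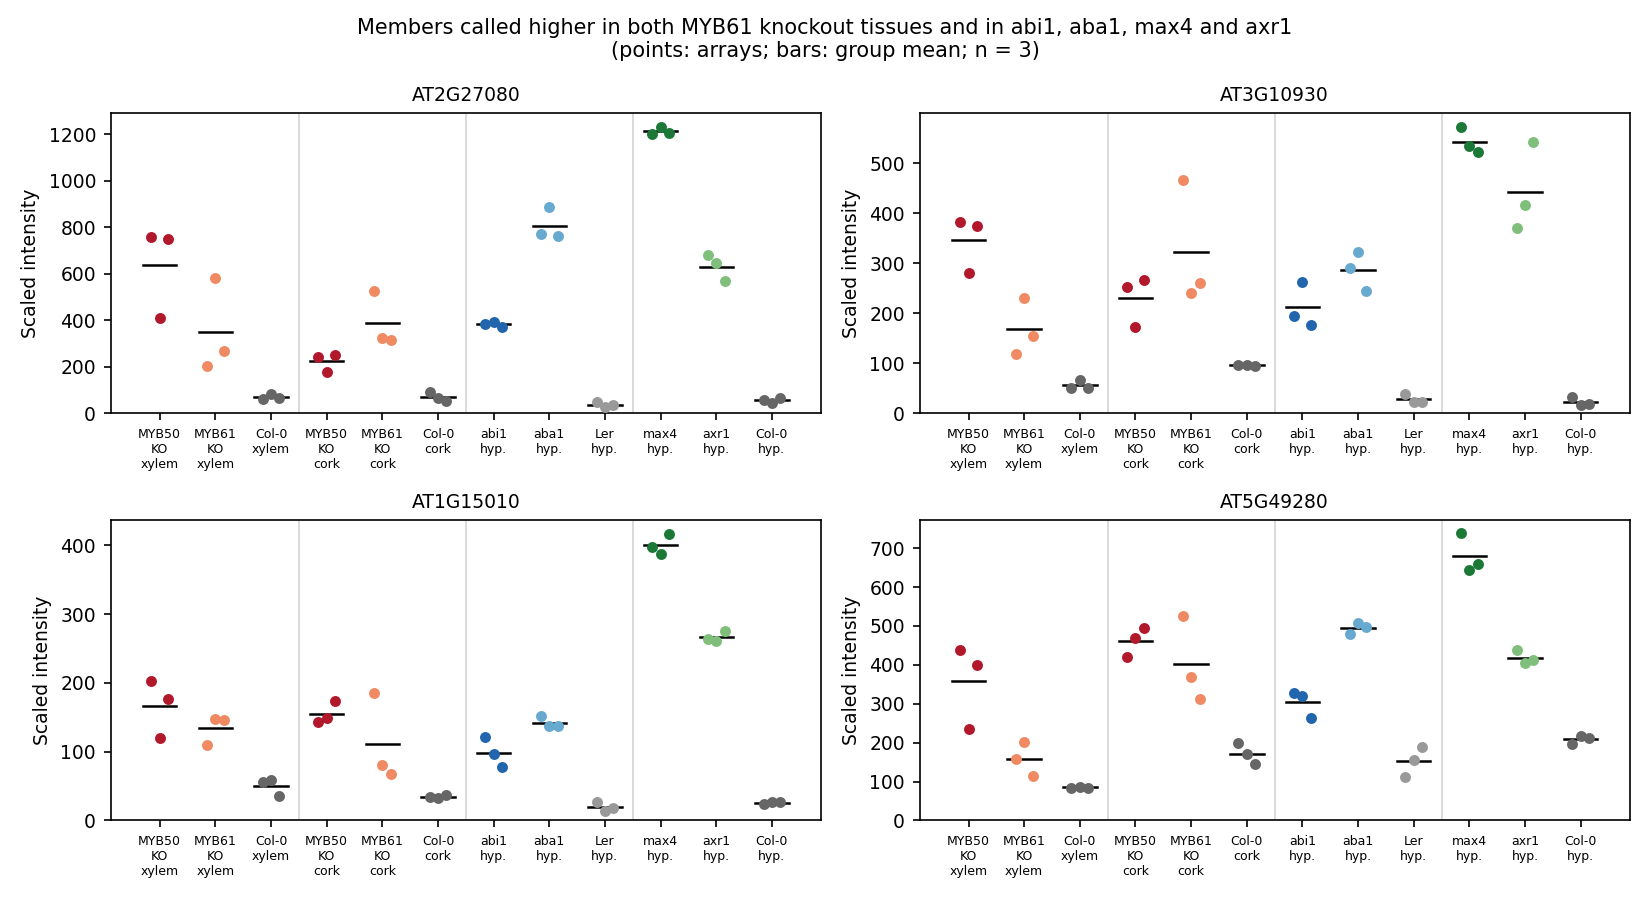
Scaled intensity (vertical axes, linear from 0) of AT2G27080, AT3G10930, AT1G15010 and AT5G49280 on every array of the 12 groups (points), with group means (bars); KO is knockout and hyp. hypocotyl. AT2G27080 lies between 1200.4 and 1229.8 in max4 and between 46.1 and 65.1 in Col-0 hypocotyl.

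The tested markers of touch and wounding stood higher in the hypocotyl mutants than in the wild types set against them. In MYB50 knockout xylem 2 of them were called higher, and in MYB50 knockout cork 1. Of 10 such genes listed 2 were tested, ORA47, an AP2/ERF transcription factor of jasmonate and wound responses, and STZ, a zinc-finger repressor of stress responses. ORA47 was at 955 ± 53.5 in max4 and 756 ± 85.5 in axr1, against 31.8 ± 9.57 in Col-0 hypocotyl, and at 408 ± 74.4 in abi1 and 781 ± 19.6 in aba1, against 32.8 ± 12 in Ler. It was at 743 ± 275 in MYB50 knockout xylem and 561 ± 161 in MYB61 knockout xylem, against 109 ± 18.5 in Col-0 xylem. STZ rose by 4.56 in max4, 4.14 in axr1, 1.91 in abi1 and 2.01 in aba1. In MYB50 knockout cork ORA47 rose by 0.84 and STZ differed by 0.10 (adjusted p = 0.8). The part of touch or wounding in the members' differences was not tested.

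The MYB61 knockout was set against the Col-0 xylem and cork arrays that also entered the rule, where low Col-0 values favoured membership, so its values are given beside the others and not as independent evidence. In xylem 8 members rose and 1 fell, against 1.22% and 0.659% of all probe sets. In cork 6 rose and 1 fell, against 3.89% and 4.11%. Median member intensity was 40.8 in MYB61 knockout xylem and 40.9 in MYB61 knockout cork, against 35.4 in Col-0 xylem and 32.7 in Col-0 cork, and the median differences of members were 0.07 in xylem and 0.05 in cork. Most members thus lay near Col-0: AT1G49500 read 1.8, 4.4 and 1.5 in MYB61 knockout xylem, as low as in Col-0, and AT5G07030 27.0, 21.1 and 20.1.

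AT2G27080, AT3G10930, AT1G15010 and AT5G49280 rose in both tissues of the MYB61 knockout. The share of all probe sets that did so was not counted. AT2G27080 read 202.7, 580.1 and 267.7 in MYB61 knockout xylem, against 61, 83.3 and 67.4 in Col-0 xylem (log2 1.95, SE 0.25, adjusted p = 1.55e-05). In cork it read 525.2, 323.9 and 315.0 in the MYB61 knockout, against 93.1, 65.7 and 54.2 in Col-0 (2.2, adjusted p = 7.3e-07), and 243.3, 179.6 and 249.5 in the MYB50 knockout. AT3G10930 likewise stood higher in MYB61 knockout cork (466.2, 240.8 and 260.0) than in MYB50 knockout cork (252.5, 173.0 and 267.1) by its mean, with overlapping arrays, against 96.4, 95.7 and 95.6 in Col-0 cork. AT1G15010 rose by 1.19 in xylem and 1.21 in cork, and AT5G49280 by 0.76 and 1.14. AT4G30650 rose in xylem (270.0, 186.1 and 151.0 in the MYB61 knockout, against 137.9, 44.6 and 46.3 in Col-0) and differed by 0.06 in cork (adjusted p = 0.93). AT1G63040, AT1G33590 and AT4G24110 rose in xylem, AT1G09575 and AT5G18500 in cork. For AT1G63040 and AT5G18500 the arrays of the MYB61 knockout and Col-0 overlapped. AT1G31710 fell in xylem to near the background (5.6 ± 5.2 in the MYB61 knockout, against 18.6 ± 4.1 in Col-0), and AT4G10270 fell in cork by 0.60.

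Single arrays of the MYB61 knockout stood apart for several members. Replicate 2 in xylem and replicate 1 in cork were the high ones. AT5G62360 read 29.5, 129.6 and 14.1 in MYB61 knockout xylem and 135.9, 24.6 and 20.7 in MYB61 knockout cork, and AT3G17120 read 2.1, 38.2 and 1.4 in xylem and 32.7, 2.4 and 2.5 in cork. Without xylem replicate 2 the calls in xylem were 4 rises and 1 fall, and AT2G27080 differed by 1.53. Without Col-0 xylem replicate 2 they were 5 rises and no fall. Without cork replicate 1 the calls in cork were 6 rises and 2 falls, and AT2G27080 differed by 1.97. When the 6 arrays of a tissue were fitted alone, xylem had 1 rise and cork 3 rises and 1 fall. AT2G27080, AT3G10930 and AT4G30650 then lost their calls in xylem and AT1G15010 its call in cork. Whether the knockout's difference was unlike in xylem and cork was tested after the data were seen. By limma's adjusted p 0 of the 98 members were called, against 0.113% of all probe sets, and 8 members had an unadjusted p under 0.05.

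In MYB61 knockout xylem relative to MYB61 knockout cork 18 members were higher and 32 lower, against 15.3% and 18.6% of all probe sets, with a median of -0.15 for members and 0.01 for all. With quantile normalization the split was 23 higher and 27 lower. AT1G63040 read 92, 114.8 and 99.4 in MYB61 knockout xylem, against 17.9, 11.5 and 13.1 in MYB61 knockout cork (log2 1.97, SE 0.24, adjusted p = 4.98e-08). AT4G17260 (1.24), AT4G33960 (1.12) and AT2G43620 (0.94) were also higher in xylem. AT5G58300 read 2.8, 2.5 and 2.7 in MYB61 knockout xylem, near the background, against 32.6, 37.6 and 38.0 in MYB61 knockout cork, a difference of -1.48. AT5G55180 (-1.45), AT3G06035 (-1.33) and AT3G52870 (-1.28) were lower in xylem, the last with an uneven 74.5, 13.1 and 19.8 in cork. AT3G06035 was the brightest of these, with 64, 75.8 and 53.1 in xylem against 156.7, 200.2 and 200.2 in cork.

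The ecotypes differed for 60 of 98 members, a share close to that of all probe sets. In Ler hypocotyls 11 members were higher and 49 lower than in Col-0 hypocotyls, against 30.7% and 27.1% of all probe sets. The median was -0.43 for members and 0.02 for all. At least 2-fold lower were 30 members, with no share counted over all probe sets. AT2G43535 read 18.3, 34.0 and 27.0 in Ler, against 820.4, 727.5 and 598.5 in Col-0 (log2 -4.11, SE 0.22, adjusted p = 5.83e-16). AT2G43530 (-3.55), AT5G19120 (-3.05) and AT5G19110 (-2.53) were next. How well the probes match the Ler sequence was not examined, so these are differences of signal. AT5G55180 was higher in Ler, at 190.7, 211.9 and 265.7, against 58.7, 51.1 and 34.3 in Col-0 (1.91), as were AT1G63040 (1.00), AT4G16260 (0.95) and AT4G08780 (0.83). Arrays of these groups also differed in the scanner background (122 ± 8.37 in Ler and 76.6 ± 12.7 in Col-0 hypocotyl) and in the 25S ribosomal RNA control (66.4 ± 18.6 in Ler and 2380 ± 362 in Col-0 hypocotyl). The part of these in the difference between ecotypes was not tested beyond a fit with the scanner background as a covariate, where AT1G63040 differed by 0.52 and was not called.

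By the gene order of the TAIR10.1 table, 3 pairs of members are direct neighbours, and AT1G28390 and AT1G28400 have 1 gene between them. AT2G43530 and AT2G43535 were both highest in Col-0 hypocotyl: the first read 231.1, 228.3 and 216.5 in max4 and 463.5, 472.9 and 425.1 in axr1, against 1065.4, 1068.9 and 934.1 in Col-0 hypocotyl. In max4 they fell by 2.1 and 2.37. AT5G19110 and AT5G19120 were also highest in Col-0 hypocotyl and fell in max4 by 1.3 and 3.11. In axr1 they differed by -0.60 (adjusted p = 0.0965) and -0.57 (adjusted p = 0.188). Of the last pair, AT5G62350 read 1185.9, 1276.0 and 1256.9 in axr1, against 786.6, 780.7 and 747.4 in Col-0 hypocotyl (0.67, adjusted p = 0.116), and AT5G62360 read 95.2, 66.1 and 77.4 in axr1, against 12 ± 2.3 in Col-0 hypocotyl (1.76, adjusted p = 0.00161).

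**Figure D5:**
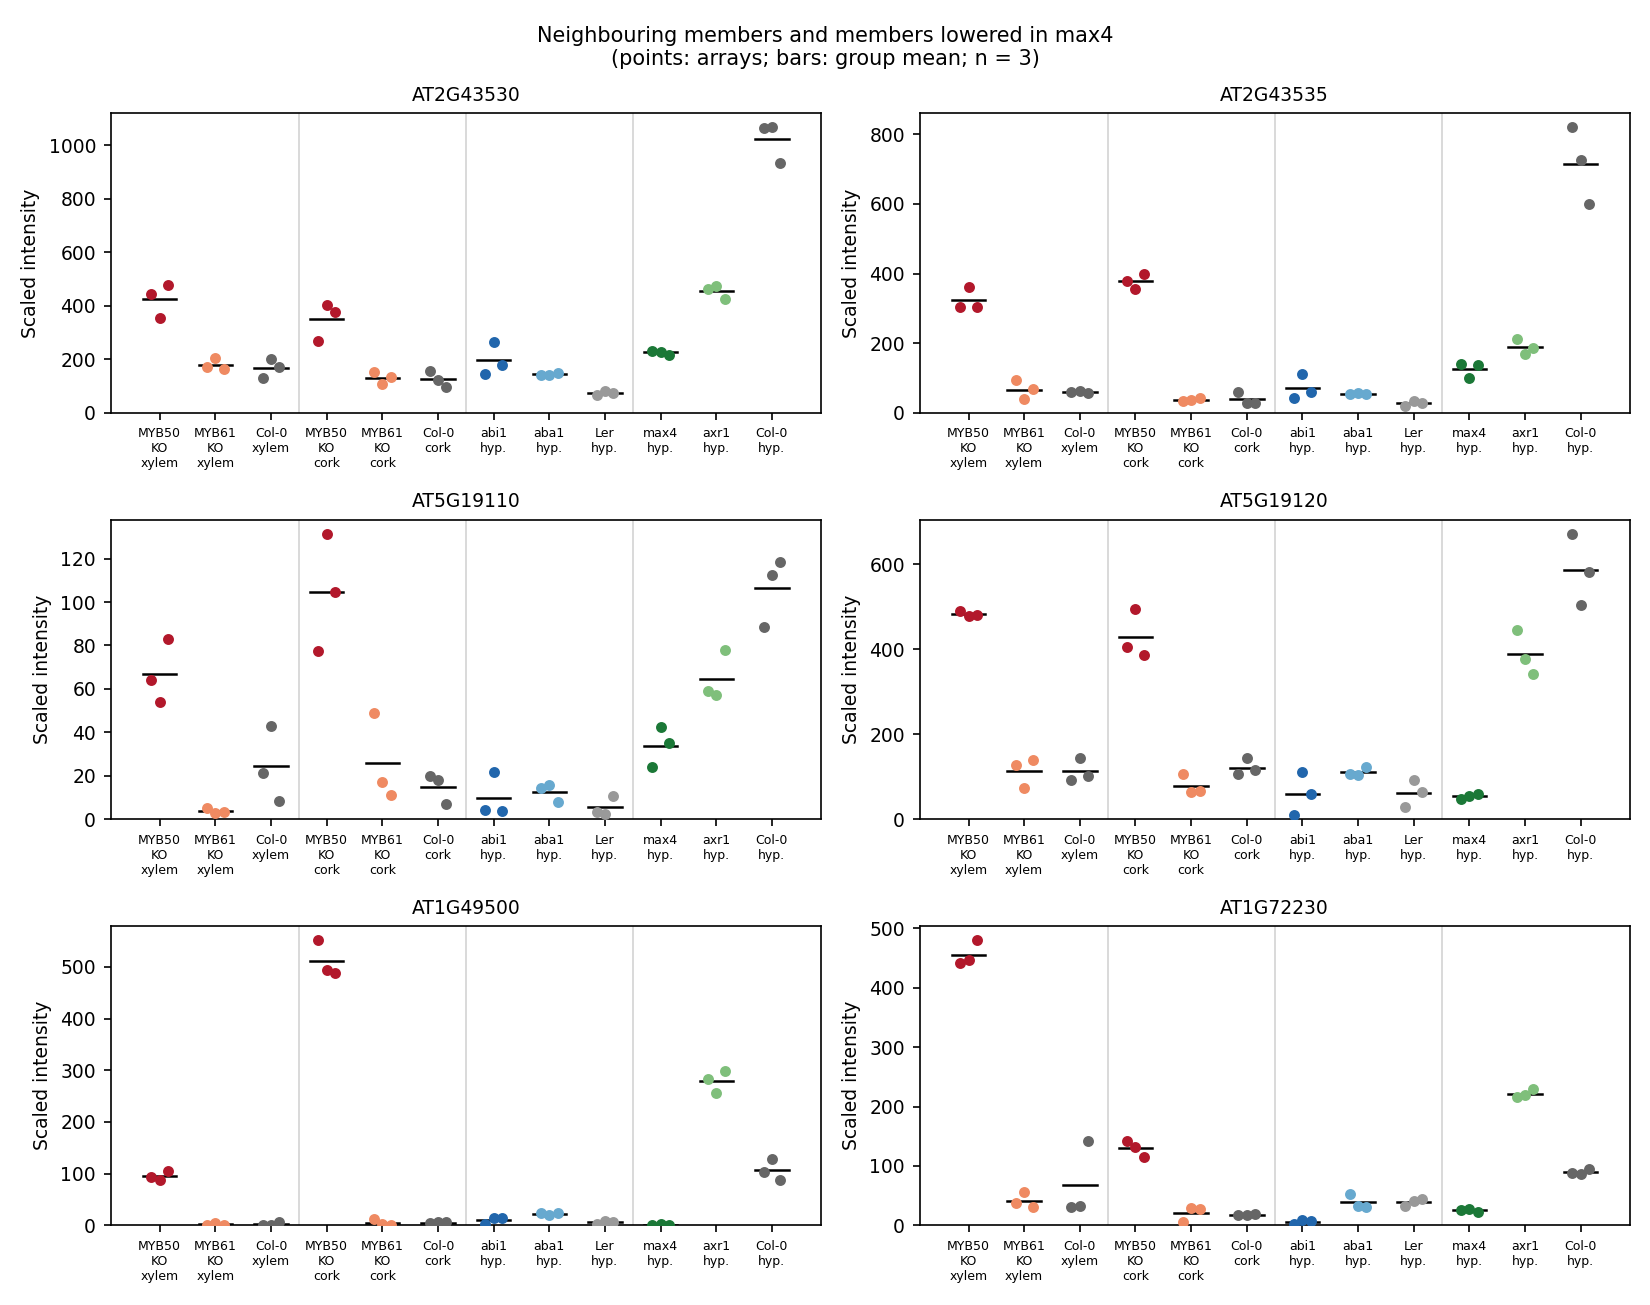
Scaled intensity (vertical axes, linear from 0) of 2 neighbouring pairs and of AT1G49500 and AT1G72230 on every array of the 12 groups (points), with group means (bars); KO is knockout and hyp. hypocotyl. AT1G49500 is at 1.7, 2.1 and 1.5 in max4 and between 255.7 and 298.2 in axr1.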

How the data were processed

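Total RNA of 36 pooled samples was hybridised to 36 ATH1 arrays, 1 colour and 1 array per sample. The authors deposited 1 scaled intensity per probe set and array, on a linear scale. The sources used here do not name the summarising software. Intensities were used as log2(intensity + 16), with no further normalization, so differences of dim genes are understated. The 64 control probe sets and those with a mean intensity under the 30th percentile (14.7) were left out. A linear model of 12 group means was fitted with limma 3.58.1 in R 4.3.3 (24 residual degrees of freedom, variance trend, prior of 6.26 degrees of freedom) to 15924 probe sets, and p-values of two-sided contrasts were adjusted by Benjamini-Hochberg over all of them. Tables and figures used Python 3.11.15, numpy 2.4.6, pandas 2.3.3 and matplotlib 3.10.9. The script was tested on simulated data.

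The members and gene lists were chosen with earlier results of these data known. The contrasts that chose members were fitted too. Their calls are used for the shares over all probe sets and for listed genes, and not as tests of the members. The text names the 8 members with the largest mean MYB50 knockout difference, up to 4 called rises and 4 called falls without overlap per comparison, the genes nearest each limit, and listed genes with the smallest p; other members were chosen after their values were seen. Names came from the array's annotation and, for 99 of 99 members, the RefSeq gene table (TAIR10.1), which was also used for gene order. The array's build is not given, so no positions are printed, and sequences were not used here. The fit was repeated with a replicate block, with array weights, with the scanner background as a covariate, after quantile normalization, with pseudocounts of 1 or 64, with all probe sets or those above the 50th percentile, on the compared groups alone and without each array in turn. The number of arrays limits the precision.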

Additional observations from a re-analysis of the deposited data

How the results depend on the processing

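The choice of members depends on the pseudocount: the rule gave 235 genes with a pseudocount of 1 (80 of the 99 among them) and 36 with 64 (35 shared), but 89 with quantile normalization (87 shared) and 95 to 106 with single arrays left out. With array weights 33 members were called in abi1, 49 in aba1 and 12 in MYB61 knockout cork. In that cork 10 rose and 2 fell, against 4.9% and 4.7% of all probe sets with the same weights. With only the arrays of the groups compared, 1 was called in MYB61 knockout xylem, 4 in MYB61 knockout cork and 22 between the tissues of the MYB61 knockout. The cause was not tested, except that the last fits rest on fewer samples. Leaving out single arrays gave 13 to 21 calls in abi1, 27 to 31 in aba1, 54 to 57 in max4, 53 to 57 in axr1, 5 to 10 in MYB61 knockout xylem, 6 to 8 in MYB61 knockout cork, 40 to 53 between its tissues, 52 to 58 for Ler, 16 to 21 for abi1 against aba1 and 55 to 58 for max4 against axr1. In MYB61 knockout xylem 5 were called without Col-0 replicate 2 and 5 without knockout replicate 2. Same-numbered arrays did not deviate together throughout: correlations were above 0.1 for every number in 0 of the comparisons. Single correlations ran from -0.156 (replicate 2) to 0.327 (replicate 3), both between MYB61 knockout xylem and cork. Whether some same-numbered arrays share more than a number was not tested. With the replicate block the calls were 20 in abi1, 33 in aba1, 61 in max4, 60 in axr1, 9 and 6 in MYB61 knockout xylem and cork, 50 between its tissues and 59 for Ler. Over the 58 named results and 865 alternative fits, 837 kept direction and call, 28 lost the call and 0 reversed. The calls most often lost were AT4G08780 (10 fits) and AT4G16260 (3 fits) in Ler against Col-0 and AT1G31710 (6 fits) in MYB61 knockout xylem. Values under 16 lie near the background, where differences rest on little signal: AT3G17120 was called higher in aba1 at 15.8 ± 3.27, against 0.9 ± 0.608 in Ler.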
